A study of Mus musculus with 6 samples.

Results

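The stratified epithelial keratins followed here are 10 genes of the 8251 named on the array, read by 16 of 12422 probe sets: Krt6a, Krt6b, Krt16 and Krt17 (activation keratins), Krt5, Krt14 and Krt15 (basal keratins), and Krt1, Krt10 and Krt13 (suprabasal keratins). All 10 symbols were found, and every probe set was kept separately. The genes were chosen by their family and with the estradiol over vehicle ratios of these same arrays in view, so that their folds describe the arrays and test nothing.

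The arrays came from whole uteri of female C57BL/6 mice labelled as 10 to 11 weeks old (the housing protocol has them older, received at 10 weeks and kept for 3) that had been ovariectomised 7 days before they were killed. The groups were vehicle, given 24 h before death, and estradiol (E2), 0.05 µg per mouse under the skin, with 1, 3, 6, 12 or 24 h between injection and death. Every group, vehicle included, lacked ovaries, and each consisted of 1 Affymetrix U74Av2 array of RNA from pooled uteri. The protocol states 10 mice without saying whether this is the number in each group. With 1 array a group no spread between replicates exists, no test was made, and only the 24 h comparison was matched to vehicle in time since injection. Whole organ RNA was measured, so that more cells of a type and more RNA per cell cannot be told apart.

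Keratins form the intermediate filaments of epithelial cells, and each filament is built from a type II keratin paired with a type I keratin. In skin and other stratified epithelia the dividing basal layer makes Krt5 (type II) with Krt14 (type I), cells that leave it switch to Krt1 (type II) with Krt10 (type I), or in moist mucosae to Krt4 (type II) with Krt13 (type I), and wounded or hyperproliferative epithelium makes Krt6a or Krt6b (type II) with Krt16 or Krt17 (type I). The lining of the uterine body is a simple epithelium, known for Krt8, Krt18, Krt19 and Krt7, whereas the vagina and outer cervix have a stratified one that thickens and cornifies under estrogen.

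The values are MAS5 signal, the software's summary of a probe set on a linear scale, after scaling of each array to the same trimmed mean. A probe set was called above the floor at 142.8 signal units, the 40th percentile of all values, and lower values were raised to the floor before log2 ratios to vehicle were taken. A fold against a value under the floor is therefore given as "at least". Of the 16 keratin probe sets, 11 were above the floor on 1 or more of the vehicle, 1, 6, 12 and 24 h arrays. The other 5 were the single probe sets of the 3 basal keratins, 1 of 2 for Krt10 and 1 of 3 for Krt13. Probe sets have different affinities, so that levels are compared between arrays and never between probe sets.

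Activation and suprabasal keratins stood far above vehicle after estradiol, from different times on, while no basal keratin was above the floor on any array. Krt6a, Krt6b and Krt13, and Krt17 by 92862_f_at, were 2-fold or more above vehicle at 6 h. Krt16 was above the floor from 12 h, and Krt17, Krt10 and Krt1 differed most between 12 and 24 h. At 1 h, none of the 16 probe sets was 2-fold or more from vehicle, where 1.08% of all probe sets above the floor on either array were higher by that much and 0.552% lower. At 6 h, 6 of the 16 were 2-fold or more higher (6.68% of all), at 12 h 9 (6.69% of all) and at 24 h 10 (3.49% of all). The shares count only probe sets above the floor on either array, which 10 of the 16 were at 6 h, 11 at 12 h and 11 at 24 h. None was 2-fold lower at these times, where 8.39% of all were at 6 h, 7.25% at 12 h and 3.75% at 24 h. These shares stand beside contrasts that were in view when the genes were chosen, and nothing is read from the excess.

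**Figure D1:**
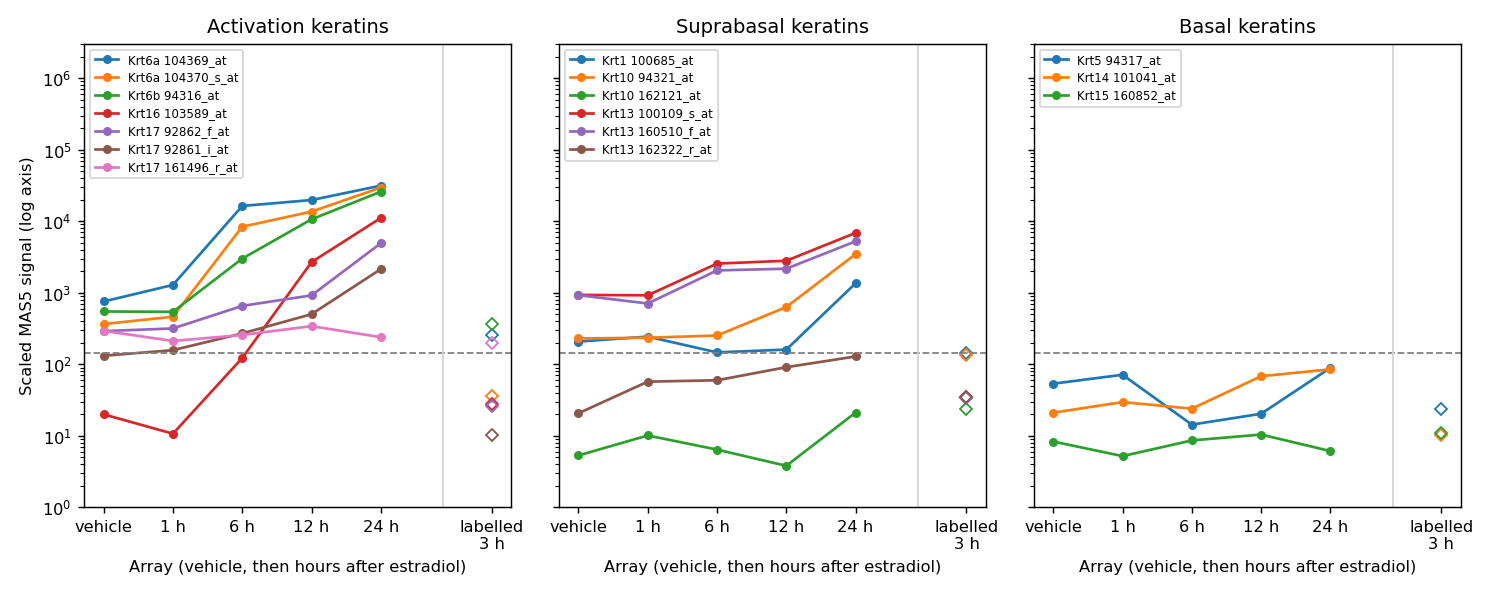
Scaled MAS5 signal (log axis) of all 16 keratin probe sets by class on the vehicle array and 1, 6, 12 and 24 h after estradiol, with the array labelled 3 h as open diamonds at the right; the dashed line is the floor of 142.8. The activation and suprabasal lines are highest at 24 h except the flat Krt17 probe set 161496_r_at, 1 Krt10 and 1 Krt13 probe set stay under the floor, and all 3 basal keratins lie under the floor on every array.

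Krt6a, a type II keratin of wounded and hyperproliferative epithelium, was read by 2 probe sets. Probe set 104369_at had 754 signal units on the vehicle array, 1283 at 1 h, then 16315 at 6 h, 19742 at 12 h and lastly 31370.1 at 24 h. Probe set 104370_s_at had 365 on the vehicle array, 462 at 1 h, then 8370 at 6 h, 13614 at 12 h and lastly 29464 at 24 h. Both were low on the vehicle and 1 h arrays and high from 6 h on.

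Against vehicle, the Krt6a folds were 1.70 and 1.27 at 1 h for 104369_at and 104370_s_at, 21.6 and 22.9 at 6 h, and 41.6 and 80.8 at 24 h. The probe sets thus gave nearly the same fold at 6 h and differed at 24 h, with 104370_s_at the higher. By 6 h the log2 ratio of 104369_at had already reached 82.5% of its 24 h value, and that of 104370_s_at 71.3%. In the last step, 24 h over 12 h, the folds were 1.59 and 2.16. Only 36 of 12422 probe sets were brighter than 104369_at at 6 h and 2 at 24 h, so its later values lie near the top of the range, where an array may compress differences, and the part of this in the timing was not tested.

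Krt6b, the close relative of Krt6a and its neighbour on chromosome 15, was also above vehicle at 6 h, by a lower fold than Krt6a. Its probe set 94316_at had 546 signal units on the vehicle array, 541 at 1 h, then 2997 at 6 h, 10618 at 12 h and lastly 25864 at 24 h. The vehicle and 1 h arrays were nearly equal, and every later array was higher than the one before. The fold over vehicle was 5.49 at 6 h, 19.4 at 12 h and 47.4 at 24 h. At 6 h the log2 ratio was 44.1% of that at 24 h, a lower share than either Krt6a probe set had. The Krt6a shares rest on later values near the top of the range, and the part of this in the order was not tested. The suffix of 104370_s_at marks probes that may match more than 1 transcript, and how far Krt6a and Krt6b RNA bind each other's probes was not tested.

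Krt16, the type I partner of the Krt6 proteins, was not above the floor before 12 h. Its probe set 103589_at had 19.9 signal units on the vehicle array, 10.7 at 1 h, then 122 at 6 h, 2676 at 12 h and lastly 11094 at 24 h. Only the last 2 of these arrays lay above the floor. Krt16 was at least 18.7-fold higher than vehicle at 12 h and at least 77.7-fold higher at 24 h, and from 12 to 24 h it was 4.15-fold higher. Because it passed the floor only through the arrays where it was high, no fold is given for 6 h. Under a floor at the 20th percentile, which the vehicle value also missed, its log2 ratio at 6 h was at least 1.62.

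Krt17, another type I keratin of activated and appendage epithelium, was read by 3 probe sets that did not give the same picture. Probe set 92862_f_at had 290.4 signal units on the vehicle array, 316 at 1 h, then 654 at 6 h, 917 at 12 h and lastly 4920.1 at 24 h. Probe set 92861_i_at had 131, 157, 269.7, 501 and 2137 on the same arrays in that order. Probe set 161496_r_at had 293 on the vehicle array, 212 at 1 h, then 256 at 6 h, 341 at 12 h and lastly 239 at 24 h. The first 2 were higher on each array than on the one before, most of all at 24 h, whereas the third stayed within a narrow band with no direction.

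At 24 h over vehicle, Krt17 was 16.9-fold higher by 92862_f_at and at least 15.0-fold higher by 92861_i_at, and 161496_r_at had a fold of 0.816. At 6 h the fold was 2.25 by 92862_f_at and at least 1.89 by 92861_i_at, and at 12 h 3.16 and at least 3.51. The first 2 probe sets share 1 target sequence in the array annotation, so that they are not independent. The third was designed to another sequence. None of the 3 has the plain suffix of a probe set unique to 1 transcript: _f_at, _i_at and _r_at mark shared, incomplete or relaxed designs, and the Krt13 probe sets carry _s_at, _f_at and _r_at. How far RNA of related keratins binds them, and which Krt17 reading is right, was not tested. From 12 to 24 h, 92862_f_at was 5.36-fold higher, a larger step than those of Krt6a and Krt6b.

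**Figure D2:**
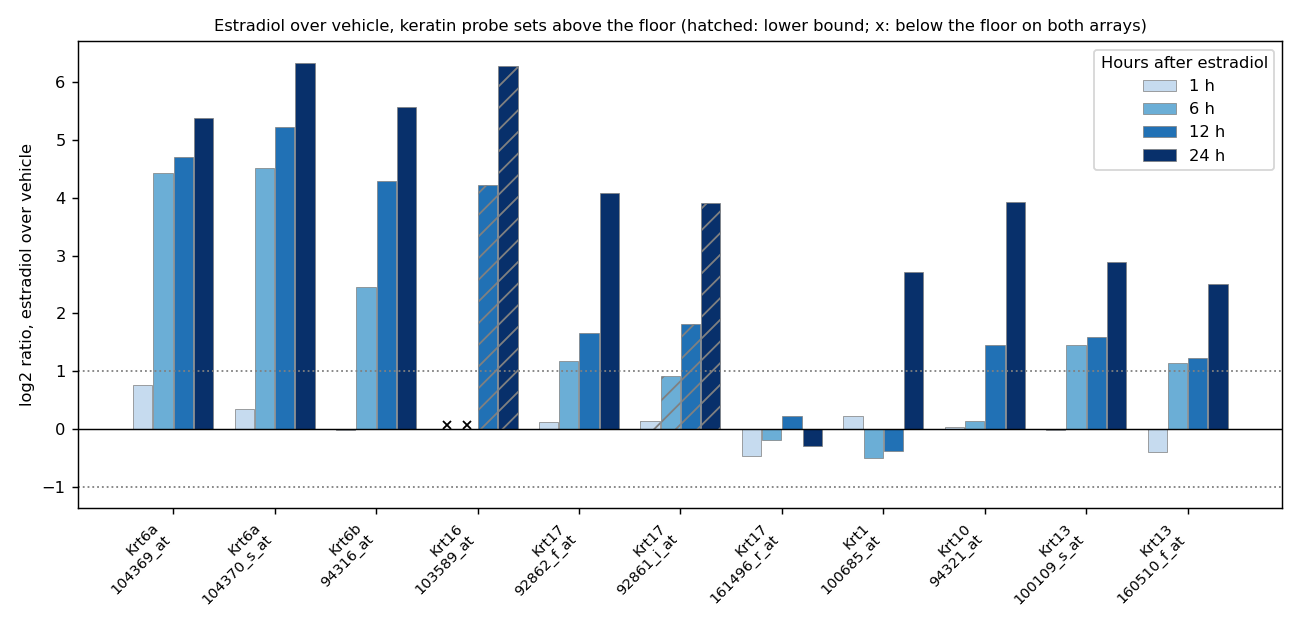
Log2 ratio of estradiol over vehicle at 1, 6, 12 and 24 h for the 11 keratin probe sets above the floor on at least 1 of these arrays; dotted lines mark 2-fold, hatched bars are lower bounds and crosses mark comparisons with both arrays under the floor. Krt6a reaches 4.44 and 4.52 at 6 h, Krt16 is at least 4.23 at 12 h, and Krt1 passes 2-fold only at 24 h.

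Among the suprabasal keratins, Krt13 differed from vehicle first, then Krt10, then Krt1. Krt13, a type I keratin of non-cornified mucosal epithelium, was read by probe set 100109_s_at at 931 signal units on the vehicle array, 920.1 at 1 h, then 2551 at 6 h, 2796 at 12 h and lastly 6861 at 24 h. Probe set 160510_f_at had 924, 706, 2048, 2165 and 5229 on the same arrays. Both stood at one level on the 6 and 12 h arrays and at a higher one on the 24 h array.

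Krt13 was 2.74-fold and 2.22-fold higher than vehicle at 6 h by the 2 probe sets, and 7.37-fold and 5.66-fold higher at 24 h. From 6 to 12 h the folds were 1.10 and 1.06, and from 12 to 24 h they were 2.45 and 2.42. The third probe set, 162322_r_at, lay under the floor on every array, with 20.6 signal units on the vehicle array and 128 at 24 h. Krt4, the type II keratin that pairs with Krt13 in mucosal epithelium, had 1268 signal units at 24 h and 1299 in vehicle by its bright probe set. Thus Krt13 stood above vehicle at 6, 12 and 24 h while the reading of its partner was nearly the same on both arrays.

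Krt10, the type I keratin of the suprabasal epidermis, had 229 signal units on the vehicle array, 235 at 1 h, then 252 at 6 h, 630.4 at 12 h and lastly 3468 at 24 h by probe set 94321_at. The first 3 arrays were close together and the last 2 were higher. The fold over vehicle was 1.10 at 6 h, 2.75 at 12 h and 15.1 at 24 h. Its other probe set, 162121_at, had 3.80 to 21.1 signal units on these arrays and was never above the floor.

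Krt1, the type II partner of Krt10, had 207 signal units on the vehicle array, 243 at 1 h, then 146 at 6 h, 160.3 at 12 h and lastly 1355 at 24 h. Its single probe set stood out on the 24 h array alone, and its values at 6 and 12 h were just above the floor. The fold over vehicle was 0.706 at 6 h, 0.773 at 12 h and 6.53 at 24 h. Between 12 and 24 h the step was 8.45-fold, against 5.50-fold for Krt10. At 12 h the partners differed, with a log2 ratio of 1.46 for Krt10 and -0.37 for Krt1, and at 24 h both were far above vehicle.

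**Figure D3:**
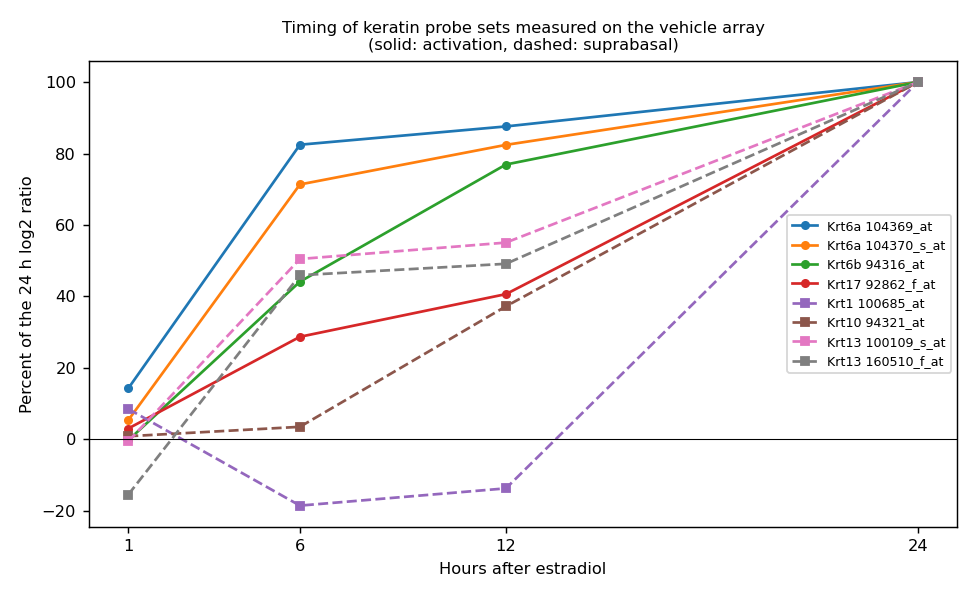
Log2 ratio to vehicle at each time as a percentage of the ratio at 24 h, against hours after estradiol, for the 8 probe sets that were above the floor on the vehicle array and 2-fold or more higher at 24 h. At 6 h Krt6a stood at 82.5% and 71.3%, Krt13 at 50.5% and 45.9%, Krt6b at 44.1%, Krt17 at 28.7%, Krt10 at 3.51% and Krt1 at -18.5%.

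The promoter sequences of 4 of the 10 genes were in the RefSeq table used (GRCm38.p6). Those of the suprabasal genes Krt10 and Krt13 are set beside those of Krt5 and Krt14, whose signal was under the floor. Each shows the 250 bases before the annotated start, 5′ to 3′, on the minus strand, in lower case with motif matches in capitals.
Krt10, chr11:99389365-99389614: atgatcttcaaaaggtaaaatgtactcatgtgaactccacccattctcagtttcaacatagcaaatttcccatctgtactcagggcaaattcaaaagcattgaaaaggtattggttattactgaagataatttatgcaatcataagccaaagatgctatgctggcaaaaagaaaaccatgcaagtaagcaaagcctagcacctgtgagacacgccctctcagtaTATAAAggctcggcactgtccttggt
Krt13, chr11:100121567-100121816: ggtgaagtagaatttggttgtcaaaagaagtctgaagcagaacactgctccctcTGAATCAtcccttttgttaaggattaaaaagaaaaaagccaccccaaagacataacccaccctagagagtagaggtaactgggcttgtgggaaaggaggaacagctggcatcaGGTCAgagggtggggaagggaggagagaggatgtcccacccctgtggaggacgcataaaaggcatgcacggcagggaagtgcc
Krt5, chr15:101712906-101713155: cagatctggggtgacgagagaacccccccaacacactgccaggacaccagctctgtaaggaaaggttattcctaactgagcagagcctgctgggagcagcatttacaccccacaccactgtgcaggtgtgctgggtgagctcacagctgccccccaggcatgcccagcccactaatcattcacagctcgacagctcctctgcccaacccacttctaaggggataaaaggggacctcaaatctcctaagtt
Krt14, chr11:100206031-100206280: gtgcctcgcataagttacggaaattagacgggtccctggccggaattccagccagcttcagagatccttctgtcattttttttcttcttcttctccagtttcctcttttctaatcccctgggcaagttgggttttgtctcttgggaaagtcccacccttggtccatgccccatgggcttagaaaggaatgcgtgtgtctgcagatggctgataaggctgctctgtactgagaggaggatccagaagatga

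The motifs searched on both strands were the estrogen response element (GGTCA and its inverted copy TGACC with 3 bases between) and its single arm (GGTCA). The GC box (GGGCGG), the TATA box (TATAAA) and a loose form of the AP-1 site (TGANTCA) were also searched. In the loose form N is any base, whereas the usual AP-1 site has C or G there. The arm lies within the full element, so a full match also counts as an arm. Krt10 held a TATA box 26 to 21 bases before its start. Krt13 held a match to the loose AP-1 form at 196 to 190 bases and a single arm at 83 to 79 bases before its start. The AP-1 match had A in the middle, so it is not the usual site. No match to these letters lay in the windows of Krt5 and Krt14. Over all 32851 promoter windows of this length, 12.4% held the TATA box, 6.75% the loose AP-1 form and 35.2% the single arm. The GC box lay in 32.7% of them and the full estrogen response element in 0.0639%. Krt6a, Krt6b, Krt16, Krt17, Krt1 and Krt15 are named only.

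The basal keratins were at or below 89.0 signal units on every array. Krt5, the type II basal keratin, had 53.4 on the vehicle array, 71.2 at 1 h, then 14.3 at 6 h, 20.3 at 12 h and lastly 89.0 at 24 h. Krt14, its type I partner, had 21.0, 29.6, 23.9, 68.0 and 84.9 on the same arrays. Krt15, a type I keratin of basal and stem cells, had 5.20 to 10.4. Values under the floor have no order here, so neither a change nor its absence can be read for these genes. With a floor at the 20th percentile, Krt14 had a log2 ratio of at least 1.09 at 24 h, its vehicle value being under that floor too, and Krt5 one of 0.74.

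In the RefSeq gene table the protein-coding genes Krt6b, Krt6a and Krt5 follow each other on chromosome 15, and Krt14, Krt16 and Krt17 on chromosome 11. The genes far above vehicle and the genes under the floor were therefore direct neighbours in both clusters: Krt6a beside Krt5, and Krt16 beside Krt14.

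By the brightest probe set of each gene, all 4 activation keratins and all 3 suprabasal keratins were 2-fold or more higher at 24 h, where 3.69% of all genes measured were higher and 3.82% lower. The median log2 ratio at 24 h was 5.47 for the activation keratins and 2.88 for the suprabasal keratins, with -0.04 over all genes. At 6 h the medians were 2.46 over the 3 activation keratins above the floor and 0.14 over the 3 suprabasal keratins, with -0.05 over all genes. At 12 h they were at least 4.25, with Krt16 at its lower bound, and 1.46. Krt16 thus entered at 12 and 24 h, where it was high, but not at 6 h, where it was under the floor. These classes differ in size and were set with values known, and no test was made between them.

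The check of the label gave a mixed picture. Of 18 markers of stratified epithelium, 15 were on the array, and 5 of these are keratins described above. The other 10 were Krt4, Trp63 and genes of junctions, signalling and the surface, of which 8 were above the floor at 24 h and 7 in vehicle, with summed signals of 38323 and 7376. At 24 h, 6 of them were 2-fold or more higher (3.69% of all genes measured) and none lower (3.82% of all). Krt4, with a fold of 0.976, was not among the 6. Gjb2, a connexin, was 17.4-fold higher, Sfn, an epithelial 14-3-3 protein, 12.3-fold, Ly6d, a surface protein, 4.71-fold and Perp, a desmosomal membrane protein, 4.17-fold. Trp63, the master regulator of stratified epithelium, had 470.0 signal units at 24 h and 290.0 in vehicle, a fold of 1.62. The defining pair Krt5 and Krt14 stayed under the floor, as did Dsc3, a basal desmosomal cadherin.

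Other genes of cornifying epithelium were also above vehicle at 24 h. Of 46 genes of the cornified envelope, 29 were on the array, and 23 of these were above the floor at 24 h or in vehicle. At 24 h, 15 were 2-fold or more higher and none lower, beside 3.69% and 3.82% of all genes measured. Most of the 15 are Sprr genes, relatives of each other, and several were read by _f_at or _s_at probe sets. How far their RNAs bind each other's probes was not tested, so the 15 may not be separate readings. Sprr1a, a cross-linked envelope protein, had 18269 signal units at 24 h and 713 in vehicle, a fold of 25.6. Flg, which encodes filaggrin, the protein that bundles keratin filaments, had 1280.5 at 24 h and 106 in vehicle, at least 8.97-fold higher, with a fold of at least 1.13 at 12 h, so that it was far above vehicle only on the array where Krt1 was. Ivl, involucrin, was at or under 50.2 signal units throughout. Lor, which encodes loricrin, had 712 at 24 h and 413 in vehicle, a fold of 1.72, by an _r_at probe set.

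Desmosomes anchor keratin filaments between cells, and hemidesmosomes anchor the basal keratins to the matrix. Of 11 desmosomal genes on the array, 10 were above the floor at 24 h or in vehicle. At 24 h, 7 were 2-fold or more higher and none lower, among them Dsc2 at least 10.2-fold, Perp 4.17-fold, Pkp3 4.13-fold and Dsp 3.45-fold. At 6 h, by the brightest probe set of each gene, only Dsc2 and Dsg2 of these 11 were 2-fold higher, where 6.91% of all genes measured were. Pkp1 was 2.16-fold higher then by its other probe set 99996_at. Of 7 hemidesmosomal genes, none was 2-fold from vehicle at 6, 12 or 24 h, where the share of all genes measured that was lower came to 9.1% at 6 h, and 12 h had 6.71% higher with 7.55% lower. At 24 h these shares were 3.69% and 3.82%, so that a count of 0 among 7 genes lies near the background. Col17a1, a hemidesmosomal collagen, had a fold of 1.54 at 24 h.

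**Figure D4:**
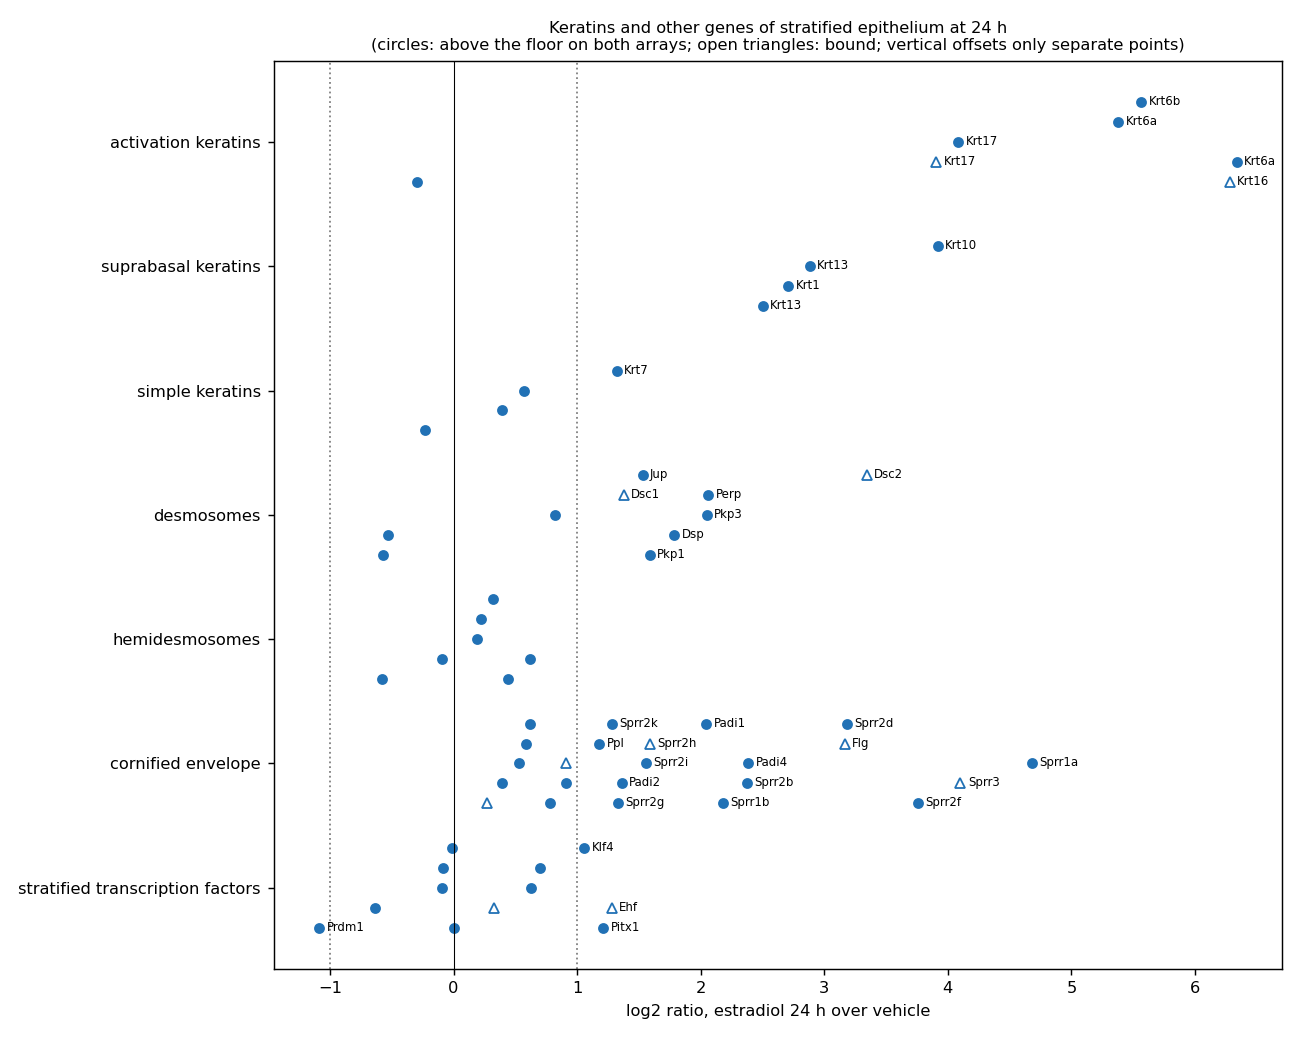
Log2 ratio of estradiol 24 h over vehicle for the keratin probe sets (first 2 rows) and for the measured genes of other lists by their brightest probe set; dotted lines mark 2-fold, open triangles are bounds and vertical offsets only separate points. Activation keratins other than 161496_r_at lie between 3.90 and 6.34 and suprabasal keratins between 2.50 and 3.92. The 7 hemidesmosomal genes lie within 2-fold, as most genes on the array did.

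Most keratins of simple epithelium were within 2-fold of vehicle. Krt8 was 1.32-fold, Krt18 0.852-fold and Krt19 1.48-fold of vehicle at 24 h, and all 3 were within 2-fold at 1, 6, 12 and 24 h. Krt18 was close to 2-fold lower at 6 and 12 h, with folds of 0.551 and 0.506. Krt7, a type II keratin of simple epithelium, had 1931 signal units at 6 h and 559.9 in vehicle, a fold of 3.45, and its fold was 2.50 at 24 h. Of all 23 keratin genes outside the list, 1 was 2-fold or more higher at 24 h and 1 lower, Krt7 and the hair keratin Krt81 at 2.10-fold lower by its brightest probe set. At 12 h, 1 was higher, Krt7, and 2 lower, Krt81 and, by an _r_at probe set, Krt36 at 2.02-fold, beside 6.71% and 7.55% of all genes. At 24 h Krt2, Krt12, Krt36 and Krt72 were within 2-fold of vehicle. Krt20 and Krt71, under the floor in vehicle, were at least 1.24-fold and 1.12-fold higher. Krt83 was above the floor at 6 h alone. Of 16 markers of simple epithelium, 14 were above the floor at 24 h and 13 in vehicle, with summed signals of 24257 and 16722, and 4 were 2-fold or more higher at 24 h and none lower, beside 3.69% and 3.82% of all genes. These were Lcn2, a secreted lipocalin, at 11.0-fold, Muc1, a surface mucin, at 2.55-fold, Krt7 and Ehf. Ehf, under the floor in vehicle, is also counted among the factors of stratified epithelium below, so the lists overlap. Cdh1, the epithelial cadherin, had 761 at 24 h and 654 in vehicle. At 6 h, 3 of the 16 markers were 2-fold or more higher and 1 lower, Cldn3 at 2.13-fold, beside 6.91% and 9.1% of all genes. The part of these marker levels in the keratin folds was not tested.

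Markers of skin and hair were examined because adhering tissue could carry these keratins. Of 17 such genes on the array, 11 were above the floor at 24 h and 7 in vehicle, with summed signals of 7995 and 3448, and 2 were 2-fold or more higher, beside 3.69% of all genes: Flg and Krtdap, a keratinocyte differentiation protein, which was at least 18.0-fold higher. The hair keratins Krt31, Krt34, Krt25 and Krt27 and the trichohyalin gene Tchh were under the floor on the vehicle and 24 h arrays. Krt32, Krt33b, Krt35, Krt84 and Krt86 were above the floor and within 2-fold of vehicle at 24 h by their brightest probe sets. Krt35 and Krt84 were read there by an _r_at and an _f_at probe set. The other probe sets of Krt32, Krt33b, Krt35 and Krt84 were under the floor on every array, and which reading is right was not tested. Whether the pools held different amounts of cervix or vagina was not tested.

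Transcription factors of stratified epithelium and signals known to act on keratin genes in skin were read next. Of 15 such factors on the array, 12 were above the floor at 24 h or in vehicle, and 3 were 2-fold or more higher at 24 h (3.69% of all genes measured): Klf4, a factor of the epidermal barrier, at 2.08-fold, Pitx1 at 2.31-fold, and Ehf, an epithelial ETS factor, at least 2.43-fold. Prdm1, a repressor of terminally differentiating cells, was 2.12-fold lower (3.82% of all). At 1 h, 2 of the factors were 2-fold or more higher and none lower, beside 1.08% and 0.552% of all probe sets. They were Cebpb, with 2854 signal units against 1026 in vehicle, and Klf4, with 2104 against 975. Cebpb had a fold of 1.01 at 24 h. The 1 h array was not matched to vehicle in time since injection, and an order between factors and keratins was not tested. Of 25 signal genes, of which 14 were above the floor on either array, none was 2-fold higher at 24 h and 1 was lower, Jun, an AP-1 subunit, at 2.62-fold. The AP-1 subunit gene Fos was 4.82-fold higher at 1 h and 2.42-fold at 6 h. At 6 h, Fos was the 1 signal gene 2-fold or more higher, and 2 were lower, Erbb3 at 2.99-fold and Jun at 2.09-fold. Of all genes, 6.91% were higher and 9.1% lower. The interleukin genes Il1a, Il1b and Il6 and the gene Tnf were under the floor on the vehicle, 6, 12 and 24 h arrays. Tnf was just above it at 1 h, with 146 signal units, and Il1b was above it on the array labelled 3 h, with 386.

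The genes most like the activation keratins in the shape of their course were taken by a set rule. Likeness was the root mean square difference between log2 ratios at 1, 6, 12 and 24 h, each profile divided by its own maximum, over 109 genes that reached 4-fold. All profiles share the vehicle array. The mean activation profile stood at 0.041, 0.378, 0.698 and 1 of its maximum, with Krt16 entered as no difference at 1 and 6 h and at its lower bounds after that. The nearest were Dsc2 by its probe set 97768_at (0.040), Ly6d (0.051), the envelope gene Sprr2b (0.056), the desmosomal plakophilin gene Pkp1 by 99996_at (0.071), Gjb2 (0.073) and Lcn2 (0.084). Dsc2 by 97768_at was under the floor in vehicle and at 1 h, so its shape is set by the floor, and its brighter probe set 103506_f_at was at least 4.31-fold higher at 6 h and at least 10.2-fold at 24 h. Pkp1 was 7.09-fold higher than vehicle at 24 h by 99996_at, but 3.00-fold by its brighter probe set 97601_f_at, which had a fold of 0.842 at 6 h. An alternative chosen after seeing the data left out Krt16 and kept only genes above the floor in vehicle, by their brightest probe set. It shared 4 of the 6 genes, Lcn2 (0.026), Ly6d (0.052), Sprr2b (0.100) and Gjb2 (0.106), and had Sfn (0.112) and Padi4 (0.126) in place of Dsc2 and Pkp1.

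The array labelled 3 h did not lie between the 1 and 6 h arrays for these genes. Krt6a had 255 signal units by 104369_at and 35.7 by 104370_s_at, against 754 and 365 in vehicle. Krt13 had 34.4 and 33.4, against 931 and 924 in vehicle, at least 6.52-fold and 6.47-fold lower. Krt6b had 370.3, against 546 in vehicle. Of the 16 probe sets, 9 were above the floor on this array or in vehicle. Of the 16, 5 were 2-fold or more lower and none higher, where 12.9% of all probe sets above the floor on either array were lower and 11.8% higher.

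On the same array most other epithelial and muscle markers were low, with exceptions. The 4 simple keratins summed to 190.3 signal units, against 7236 in vehicle, and none was above the floor. Of the 16 markers of simple epithelium, 4 were above the floor, against 13 in vehicle, and 10 were 2-fold or more lower (13% of all genes measured). Lcn2 at 43.9-fold and Ltf, lactoferrin, at 4.15-fold were higher (11.4% of all), and through them the list summed to 21808, against 16722 in vehicle. High values were not limited to that list. Of the cornified envelope genes 5 were 2-fold or more higher and 9 lower, with S100a8 at least 155-fold and S100a9 at least 120-fold higher. Of the stromal fibroblast markers 2 were higher, Col1a2 at 4.65-fold and Col1a1 at 2.17-fold, and 4 lower. Which cells these readings came from was not tested. The 7 smooth muscle markers summed to 3904, against 37618 in vehicle, with 6 of them 2-fold lower and Des, desmin, 1.58-fold higher. Across all probe sets, with values under the floor set to it, the Spearman correlation of this array with the others was 0.816 to 0.834, against 0.917 to 0.964 among those. The part of these differences in the keratin values was not tested, and the course from 1 to 6 h is described without it.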

How the data were processed

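The deposited table holds 1 value per probe set and array of signal intensity on a linear scale, made by the authors with MAS5, per the submitters' processing notes. Its version, settings and detection calls are not given in the sources used here. From the values, the mean without the top and bottom 2% was 500.2 to 500.3 on each of the 6 arrays. Of 12488 probe sets, 66 control probe sets were left out. In the array annotation 10833 probe sets carry 1 gene symbol, 396 carry several and 1193 carry none. Names were given to the single-symbol kind, with symbols brought up to date from a RefSeq gene table (GRCm38.p6).

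The 12422 remaining probe sets were scaled so that all arrays had 1 common trimmed mean. Signals below 142.8, the 40th percentile, were set to that floor ahead of the log2 step (Python 3.11.15, numpy 2.4.6, pandas 2.3.3). The steps were tested on simulated data with changes planted only in bright probe sets, so the recovery of changes near the floor was not examined. Between 58.8% and 61.7% of probe sets on an array reached the floor. With 1 array a group there was no test, and precision is limited by how few arrays there are. Genes of other lists were read by their brightest probe set, by mean log2.

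The members and lists were chosen with earlier results of these data known. All member probe sets are named. Of each list, names were taken from a set of up to 6 genes, not all of which are given. The set held the largest log2 ratios at 6, 12 or 24 h among genes with a brighter array at or above the 60th percentile (352.7). Also named are the defining markers Trp63, Lor, Flg, Ivl, Krt8 and Krt18, all keratins measured, and the 6 genes of likest course. Ehf, Dsg2, Dsc3, Ltf, Des, S100a8, S100a9, Col1a1, Col1a2 and the genes given as under the floor were singled out after their values were seen. Alternatives were 2 other scalings (1 also without the array labelled 3 h), 2 other floors, an added 50 units in place of a floor, vehicle averaged with 1 h as the reference, and 1 value a gene. A second likeness ranking, without Krt16 and with brightest probe sets only, was chosen after seeing the data.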

Additional observations from a re-analysis of the deposited data

How the results depend on the processing

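Of 25 log2 ratios of single probe sets that were 2-fold or more higher at 6, 12 or 24 h, 22 stayed so under every alternative run, and none turned its sign. The exceptions came with the floor at the 60th percentile: Krt17 by 92862_f_at at 6 h (0.89), Krt17 by 92861_i_at at 12 h (0.51) and Krt10 at 12 h (0.84), whose vehicle signals lie under that floor and were raised to it. Under the same floor the suprabasal median at 6 h was 1.30, against 0.64 with the 40th. With 1 median value for each gene, 3 genes were 2-fold higher at 6 h and 5 at 12 h, and the suprabasal median at 12 h was 0.73, since the Krt10 probe set under the floor enters. With the brightest probe set instead, 4 genes were higher at 6 h and 6 at 12 h. The counts of 6 and 9 given above are of probe sets, and the median over those was 1.34. With the floor at the 20th percentile, 1 basal keratin probe set was above it at 1 h, 1 at 12 h and 2 at 24 h, so the statement that none was measured rests on the floor.

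The array labelled 3 h was less stable. The number of probe sets 2-fold lower was 5, but 3 with the floor at the 60th percentile, 3 with the brightest probe set of a gene and 2 with the median. The activation median there was -1.02, and it was -0.98 when scaled by array medians or by quantiles, -0.56 with the higher floor and -0.58 with the median of probe sets. The suprabasal median was -1.69, and it was -0.51 with 50 units added, -0.68 with the brightest probe set and -0.53 with the median. Scaling to the same median moved the median of all probe sets on that array to -0.03, from -0.15. No paired analysis was possible because each group has 1 array, and for the same reason no replicate could be left out.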
